A study of Homo sapiens with 12 samples.

Results

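Selenoprotein mRNAs are mRNAs in which a UGA codon inside the reading frame is read as the amino acid selenocysteine instead of as a stop. The genes described here are GPX1, GPX4, TXNRD1, TXNRD2, SELENOF, SELENOH, SELENOK, SELENOT, SELENOW and SEPHS2, 10 of the 59385 gene names in the count table. They were chosen by name, as a list of mRNAs with UGA recoding, though with earlier results of these data known. All 10 were in the table and all 10 passed the filter on low counts, which left 18166 genes tested.

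The cells were HEK293T, a line of embryonic kidney origin, and both total and polysome RNA were sequenced, in 3 biological replicates of each of 4 groups. One line carried a Dox-inducible non-targeting shRNA (shCtrl) and the other a Dox-inducible shRNA against the RNA binding protein PRRC2B (shPRRC2B), and both had been treated with Dox for 36 h. Polysome RNA came from the combined heavy end of a sucrose gradient and so holds mRNAs that carried several ribosomes. The comparison asked whether translation efficiency (TE), taken as the ratio of polysome to total RNA, changed when PRRC2B was reduced. For each shRNA the cells were 1 stable clone, and the effect of the shRNA and the difference between the lines cannot be told apart. Nothing in the labels says how far apart the replicate cultures were kept, so the p-values measure the spread between these samples only.

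Ribosomes that meet the selenocysteine UGA compete with release factors, and the codon is recoded only where a stem-loop in the 3' UTR, the SECIS element, recruits SECISBP2 and the elongation factor EEFSEC with its selenocysteine tRNA. Selenoprotein mRNAs are known to differ in how their level and their decoding respond to selenium, and those with an intron after the UGA can be substrates of nonsense-mediated decay (NMD). Most of the proteins are redox enzymes with selenocysteine at the active site.

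The codons are shown here because they define the genes, and because the bases around a UGA and its place in the mRNA bear on how it is read. Each line gives the sense strand of the spliced canonical transcript of GENCODE 44 on GRCh38, in frame, with the selenocysteine codon in capitals. The lines for TXNRD1, TXNRD2 and SELENOK end with the stop codon of the reading frame.
GPX1: gtggcgtccctcTGAggcaccacggtc
GPX4: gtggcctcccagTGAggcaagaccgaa
TXNRD1: caggctggctgcTGAggttaa
TXNRD2: gtgacaggctgcTGAgggtaa
SELENOF: gaagtttgtggaTGAaaattgggaagg
SELENOH: cattgcactagcTGAcgcgtctatggg
SELENOK: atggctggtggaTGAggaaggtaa
SELENOT: atttgtgtttccTGAggttataggcgg
SELENOW: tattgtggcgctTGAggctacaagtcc
SEPHS2: ggcatgaagggcTGAggctgcaaggtc

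In 8 of the 10 the base after the codon was G, and SELENOF with A and SELENOH with C were the exceptions. The codon lay near the start of the protein in SELENOW, at residue 13 of 87 (exon 2 of 6, chr19:47780732-47780734, plus strand). It lay at residue 49 of 203 in GPX1 (exon 1 of 2, chr3:49358132-49358134, minus strand), 49 of 195 in SELENOT (exon 2 of 6, chr3:150622392-150622394, plus) and 60 of 448 in SEPHS2 (its only exon, chr16:30445548-30445550, minus). Further along were residue 44 of 122 in SELENOH (exon 2 of 4, chr11:57741816-57741818, plus), 73 of 197 in GPX4 (exon 3 of 7, chr19:1105403-1105405, plus) and 96 of 165 in SELENOF (exon 3 of 5, chr1:86880690-86880692, minus). At the other extreme, only 1 or 2 residues followed it in 3 mRNAs: TXNRD1, at residue 648 of 649 (exon 17 of 17, chr12:104348413-104348415, plus), TXNRD2, at 523 of 524 (exon 17 of 18, chr22:19877111-19877113, minus), and SELENOK, at 92 of 94 (exon 4 of 5, chr3:53885831-53885833, minus). These mRNAs therefore differed in how much protein would be lost by a stop at the UGA.

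The codon was in the last exon in TXNRD1 and SEPHS2, and before the last exon junction in the other 8. The distance from the codon to that junction was 5 nt in SELENOK, 71 in TXNRD2, 78 in SELENOF, 105 in GPX1, 243 in SELENOW, 267 in SELENOH, 342 in GPX4 and 470 in SELENOT. The transcripts themselves ran from 758 nt (SELENOW), 851 (GPX4) and 899 (GPX1) to 3437 (SELENOT) and 3860 (TXNRD1), most of the SELENOT transcript being 3' UTR (2807 nt).

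**Figure D1:**
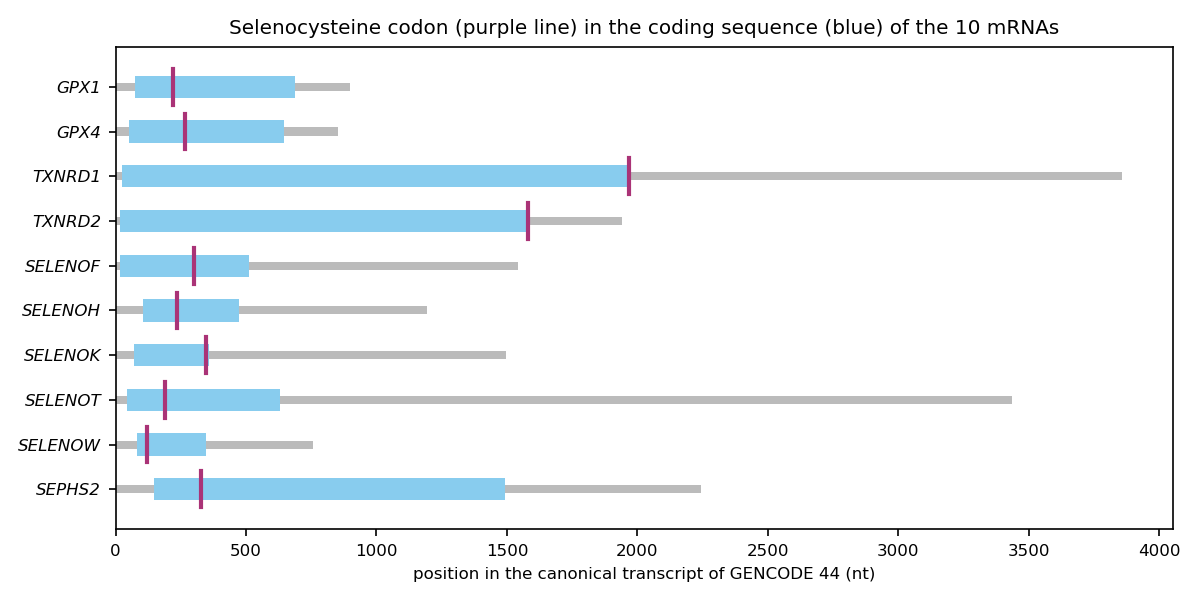
Position of the selenocysteine codon (purple line) in the canonical transcripts of the 10 genes, in nt from the transcript start on the horizontal axis, with the coding sequence in blue and the UTRs in grey. The codon is next to the end of the coding sequence in TXNRD1, TXNRD2 and SELENOK and in its first part in GPX1, GPX4, SELENOH, SELENOT, SELENOW and SEPHS2.

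Libraries held between 9855734 and 20837542 counts, and the 10 genes took between 0.0987% and 0.856% of them. PRRC2B, the targeted gene, had 281 ± 28.7 CPM (counts relative to the scaled library total, SD, n = 3) in shCtrl total RNA and 100.3 ± 2.32 in shPRRC2B total RNA, a log2 change of -1.49 (SE 0.17, adjusted p = 4.25e-06 by edgeR's quasi-likelihood test). Of the HEK293T markers checked, CDH2, VIM, KRT8, KRT18, NEFM and LIN28B were expressed and PAX2 was low, while LHX1 never exceeded 7 counts. The lines differed in some of them in total RNA. KRT8 had 90.1 CPM in shCtrl and 20.6 in shPRRC2B, and NEFM 285.5 and 96.5. Higher in shPRRC2B were LIN28B (67.2 and 141.4) and VIM (122 and 237.1), while CDH2, KRT18 and PAX2 differed less. PTPRC, HBB, PECAM1 and ALB, markers of blood, endothelium and liver, never exceeded 5 counts, and the fibroblast gene COL1A1 had 17.1 CPM in shCtrl and 31.8 in shPRRC2B total RNA. The CPM values include TMM scaling over the 12 libraries, with factors of 1.34 to 1.47 for total RNA and 0.681 to 0.742 for polysome RNA. A polysome-to-total ratio is hence relative to the other genes and is not the share of an mRNA that was on polysomes. In bulk RNA, fewer cells that express a gene and less RNA per cell cannot be told apart.

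Levels were compared between genes as CPM per kb of transcript. In shCtrl total RNA the glutathione peroxidase mRNAs led, GPX1 at 182.7 ± 28.1 and GPX4 at 160.5 ± 18.3 (SD, n = 3), and their replicates overlapped. SELENOF followed at 56.4 ± 5.16, then SELENOW at 44.8 ± 7.13 and SEPHS2 at 36.5 ± 0.903, which overlapped each other. TXNRD1 (23.4 ± 0.975), SELENOK (22.3 ± 1.05) and TXNRD2 (21.16 ± 3.8) did not separate, TXNRD2 also overlapped SELENOH (14.9 ± 3.02), and SELENOT was lowest at 9.74 ± 0.287. In shPRRC2B total RNA the order at the top was GPX4 (275.2 ± 10.6), GPX1 (178.2 ± 8.83) and SEPHS2 (92.8 ± 6.19), none overlapping the next. The lowest levels there were those of SELENOK (12.03 ± 0.504), SELENOT (11.4 ± 0.551) and SELENOH (10.7 ± 0.374), which overlapped.

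The order changed in polysome RNA. In shCtrl polysome RNA GPX1 reached 3186 ± 644 CPM per kb, GPX4 2261 ± 403 and SELENOF 758 ± 46.2, whereas TXNRD2 (17.7 ± 1.89) and TXNRD1 (13.4 ± 1.32) were last, each below every replicate of SELENOT (99.7 ± 9.21). In shPRRC2B polysome RNA GPX4 (5547 ± 737) lay above GPX1 (3748 ± 408) without overlap, and TXNRD1 was again last at 11.1 ± 3.51. Summed over the 10 genes and without regard to length, the level was 719.8 ± 54.98 CPM in shCtrl and 930.8 ± 20.8 in shPRRC2B total RNA, against 7514 ± 1294 and 11260 ± 1149 CPM in polysome RNA. GPX1 and GPX4 together made up 41.7% and 42.4% of the sum in total RNA and 63.6% and 71.7% in polysome RNA, in shCtrl and shPRRC2B respectively.

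**Figure D2:**
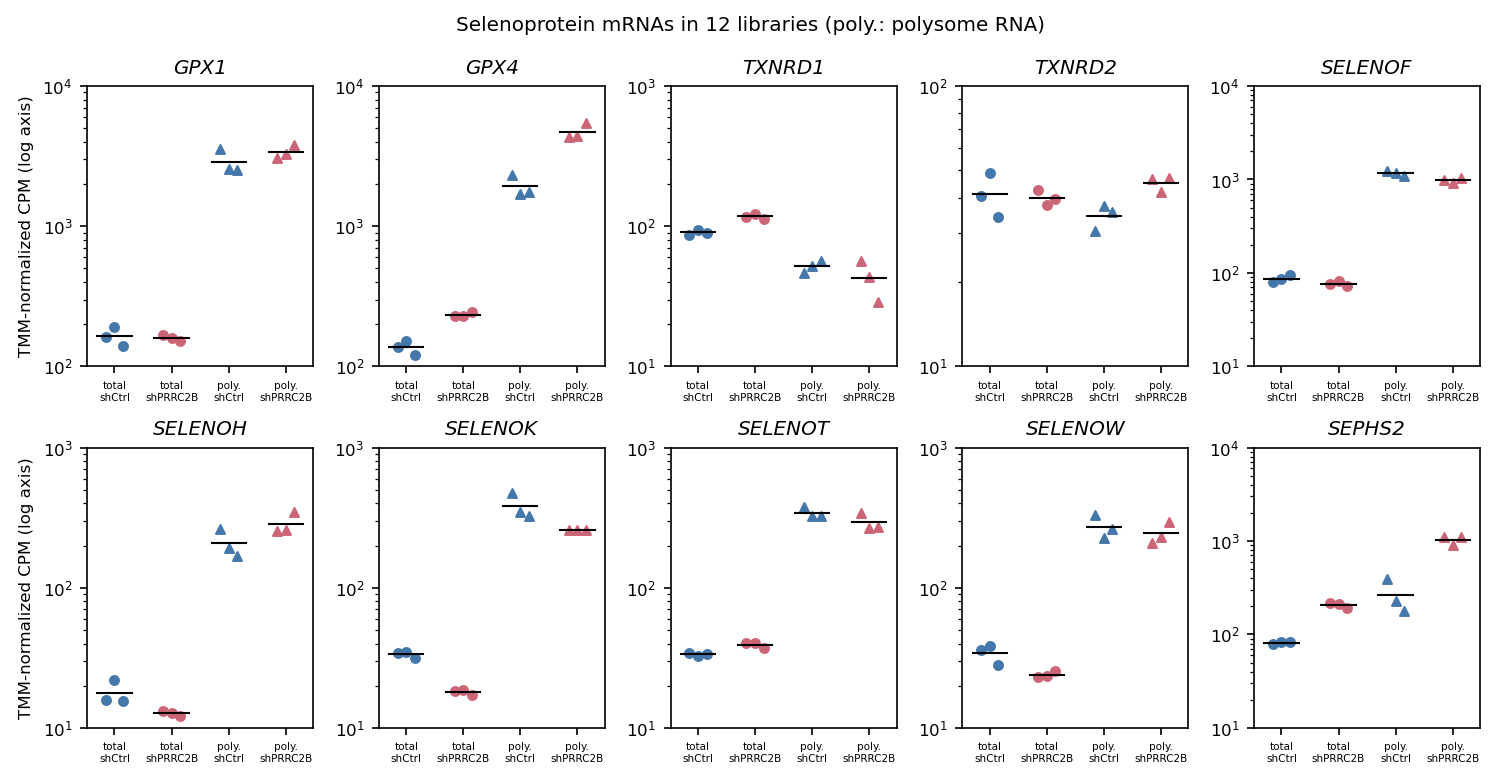
TMM-normalized CPM (log axes) of each of the 10 mRNAs in every library, with 3 replicates per group as points and the group mean as a bar, shCtrl in blue and shPRRC2B in red, total RNA as circles and polysome RNA as triangles. The polysome values lie above the total values of the same line in 8 panels, not in those of TXNRD1 and TXNRD2, and SEPHS2 and GPX4 are higher in shPRRC2B than in shCtrl in both fractions.

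Most of the 10 selenoprotein mRNAs were strongly enriched in polysome RNA in both lines. With an adjusted p below 0.05 and a log2 difference over 0.5 required, 8 of the 10 were higher in polysome than in total RNA in shCtrl, against 32.5% of all genes tested, and 1 (TXNRD1) was lower, against 39.8%. In shPRRC2B 8 were again higher, against 36.6% of all genes, and 1 (TXNRD1) lower, against 42.3%. The median log2 ratio of the 10 was 3.44 in shCtrl and 3.51 in shPRRC2B, and that of all genes was -0.22 in both. Selenoprotein genes outside the 10 were more mixed. Of 9 tested, 5 were higher and 3 lower in shCtrl (median 2.58, lowest -2.02). In shPRRC2B 5 of these 9 were higher and 2 lower (median 2.55, lowest -3.75). Scaling by total counts moved the median of all genes to -1.22 in shCtrl and -1.16 in shPRRC2B. Even on that scale 8 of the 10 mRNAs were higher in polysome RNA (17.7% of all genes in shCtrl and 23.6% in shPRRC2B). Both TXNRD1 and TXNRD2 were lower (58.8% and 56.2% of all genes).

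GPX1, the abundant cytosolic enzyme that reduces hydrogen peroxide with glutathione, had the largest ratio of the 10 in shCtrl, a log2 value of 4.12 (17.4-fold, SE 0.18, adjusted p = 2.02e-12 by edgeR's quasi-likelihood test). GPX4, which reduces lipid hydroperoxides in membranes and restrains ferroptosis, followed at 3.82, and SELENOF, SELENOH and SELENOK had 3.75, 3.54 and 3.52. SELENOT (3.36) and SELENOW (3.00) were next, and SEPHS2, the selenophosphate synthetase that makes the selenium donor for selenocysteine, was at 1.69. The cytosolic thioredoxin reductase TXNRD1 was lower in polysome RNA at -0.81 (SE 0.17, adjusted p = 0.000365), and the mitochondrial TXNRD2 was at -0.26 (95% interval -0.56 to 0.04, adjusted p = 0.11). In shPRRC2B the largest ratios were those of SELENOH (4.49), GPX1 (4.39) and GPX4 (4.33), SEPHS2 was at 2.30, TXNRD2 at 0.18 (95% interval -0.12 to 0.48) and TXNRD1 at -1.45. The thioredoxin reductases were thus the lowest of the 10 in both lines.

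Short mRNAs had high ratios in these libraries, and 8 of the 10 selenoprotein mRNAs were shorter than most genes with a known length. Of 5 equal groups of genes by transcript length, the shortest (53 to 1511 nt) had a median log2 ratio of 1.85 in shCtrl and the longest -1.66. GPX1, GPX4, SELENOH, SELENOK and SELENOW belonged to the shortest group, TXNRD2, SELENOF and SEPHS2 to the next, SELENOT to the third and TXNRD1 to the fourth. Within their own length groups, SELENOT lay above 99.2% of the other genes, SELENOF above 99%, GPX1 above 96.8%, GPX4 above 94.4%, SELENOH above 90.6% and SELENOK above 90.4%. SEPHS2 (80.3%) and SELENOW (79.2%) were lower in theirs, TXNRD1 was near the middle (55.6%), and TXNRD2 lay above only 22.9%. After the trend on length was removed from each library, the median log2 ratio of the 10 was 2.11 in shCtrl and 2.13 in shPRRC2B. The same 8 were still called higher, against 29.7% of all genes in shCtrl and 32% in shPRRC2B. TXNRD1 was then no longer called in shCtrl (-0.26), and TXNRD2 was called lower in both lines.

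**Figure D3:**
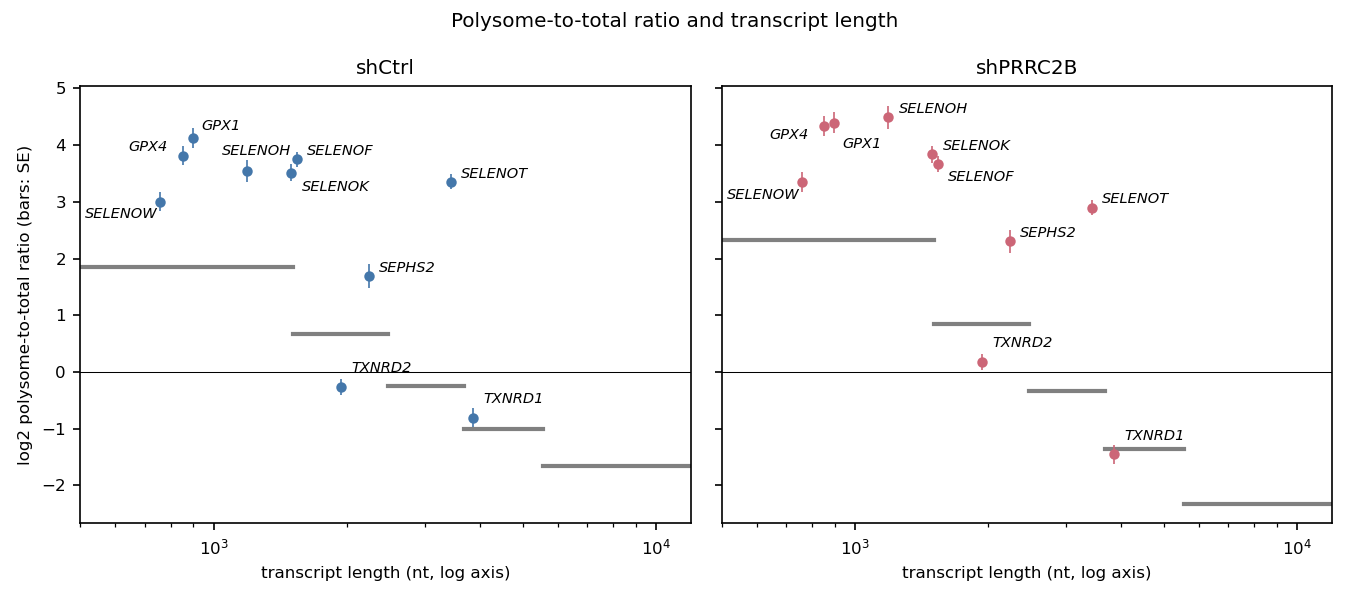
Log2 polysome-to-total ratio (points, bars are SE of the edgeR fit, 3 replicates per group) against transcript length in nt (log axis) in shCtrl and shPRRC2B, with the median ratio of each of 5 length groups of all genes as a grey line over the lengths it spans. In shCtrl 8 of the 10 mRNAs lie clearly above the line of their group, SEPHS2 and SELENOW by the least of these 8. TXNRD1 lies slightly above its line and TXNRD2 below.

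The remaining comparisons set shPRRC2B against shCtrl. In total RNA the lines did not overlap in 7 of the 10 mRNAs, against 63% of all genes tested, so separation of the replicates was common. Past the thresholds, 2 of the 10 rose (14.9% of all genes did) and 2 fell (14.1% did), and the median log2 change was -0.04 for the 10 and 0.04 for all genes. In polysome RNA 5 of the 10 did not overlap, against 43.1% of all genes, and 2 rose (18.4% of all) and 1 fell (21.4% of all), with medians of 0.04 and -0.01. In TE 5 of the 10 did not overlap in their polysome-to-total ratios, against 39.5% of 17643 genes with a ratio in every replicate, and 1 rose (10.7% of all) and 0 fell (16.4% of all). DESeq2 and limma each called 1 down in TE, against 18.5% and 16.1% of all genes. The median log2 TE change was 0.34 for the 10 and -0.03 for all genes. These counts are close to the background, and the description turns on single genes.

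SEPHS2, itself a selenoprotein, had the largest change of the 10 in total RNA and in polysome RNA, though not in TE. Its total RNA was 79.8, 82.3 and 83.8 CPM in shCtrl and 218.8, 213.6 and 192.6 in shPRRC2B, a log2 change of 1.35 (2.54-fold, SE 0.20, adjusted p = 9.73e-05 by edgeR's quasi-likelihood test, as for all adjusted p-values of genes given here). Its polysome RNA was 389.8, 225.2 and 180.0 CPM in shCtrl and 1093, 901.3 and 1090 in shPRRC2B, a log2 change of 1.96 (3.88-fold, SE 0.21, adjusted p = 1.47e-06). All 3 shPRRC2B replicates lay above all 3 shCtrl replicates in both fractions. The change of its ratio was 0.61 (95% interval 0.01 to 1.21, adjusted p = 0.123), and replicate 1 of shCtrl polysome RNA was well above the other 2. Without that replicate the TE change was 0.96 and passed the thresholds, as it did with every gene with at least 1 count tested.

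GPX4 also rose in both fractions. Total RNA was 137.9, 151.4 and 120.4 CPM in shCtrl and 228.1, 229.9 and 244.5 in shPRRC2B, a log2 change of 0.78 (1.71-fold, SE 0.15, adjusted p = 0.00094). In polysome RNA the values were 2319, 1699 and 1753 against 4335, 4382 and 5444 CPM, a change of 1.29 (2.45-fold, SE 0.15, adjusted p = 5.05e-06). The lines did not overlap in either fraction. Its polysome-to-total ratios were 16.8, 11.2 and 14.6 in shCtrl and 19.0, 19.1 and 22.3 in shPRRC2B, again without overlap, but the TE change of 0.52 (95% interval 0.06 to 0.97) had an adjusted p of 0.0851. It was called in TE without replicate 1 of shCtrl polysome RNA (0.63), with TMM within each fraction and with at least 10 counts in every library, and was -0.0013 once the length trend was removed.

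GPX1 gave other values than its relative GPX4. Total RNA was 163.4, 190.0 and 139.4 CPM in shCtrl and 168.3, 159.9 and 152.4 in shPRRC2B, and polysome RNA 3533, 2538 and 2522 against 3061, 3271 and 3775. The lines overlapped in both fractions, and no change was called, with log2 changes of -0.04 (95% interval -0.37 to 0.30) in total RNA, 0.23 (-0.10 to 0.57) in polysome RNA and 0.27 (-0.21 to 0.75) in TE. The difference between GPX1 and GPX4 was not tested. In GENCODE 44 63.6% of the exon bases of GPX1 also belong to an unnamed gene on the same strand. Whether that gene was in GENCODE 38, which was used for the counts, was not checked. The pseudogene GPX1P1 held 2.44% to 4.05% as many counts as GPX1. The level of GPX1 may thus be less certain than that of GPX4.

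SELENOH, a small thioredoxin-fold protein of the nucleus, was the single mRNA of the 10 called in TE. Total RNA was 15.8, 21.9 and 15.6 CPM in shCtrl and 13.1, 12.8 and 12.2 in shPRRC2B, and polysome RNA 262.4, 192.3 and 168.5 against 252.3, 259.0 and 348.3. Total RNA of all 3 shPRRC2B replicates lay below shCtrl, whereas polysome RNA overlapped. The ratios were 16.6, 8.76 and 10.8 in shCtrl and 19.2, 20.2 and 28.5 in shPRRC2B, with no overlap, and the TE change was 0.95 (SE 0.25, 95% interval 0.42 to 1.48, adjusted p = 0.00984). Its parts were -0.49 in total RNA (adjusted p = 0.0481) and 0.46 in polysome RNA (adjusted p = 0.0362), each with a size just under the threshold of 0.5. The fall in total RNA was called in 11 of 23 alternatives and the rise in polysome RNA in 3 of 23. With the length trend removed the TE change was 0.48 and was not called (adjusted p = 0.137). Of its exon bases 36.6% are shared with BTBD18 on the opposite strand and an unnamed gene, and its total RNA counts are among the lowest of the 10. The TE change of SELENOH may thus be less certain than those of mRNAs without shared exon bases.

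SELENOF, SELENOK and SELENOT reside in the endoplasmic reticulum, where SELENOF is linked to glycoprotein folding and SELENOK is a membrane protein required with DHHC6 for protein palmitoylation. SELENOK fell in both fractions. Total RNA was 34.0, 34.7 and 31.7 CPM in shCtrl and 18.4, 18.5 and 17.1 in shPRRC2B, a log2 change of -0.89 (SE 0.14, adjusted p = 0.00013), and polysome RNA was 476.4, 347.7 and 323.9 against 257.6, 256.0 and 259.6, a change of -0.57 (SE 0.13, adjusted p = 0.00226). The lines did not overlap in either fraction. Without replicate 1 of shCtrl polysome RNA the polysome change was -0.47 and no longer passed the size threshold. The TE change of SELENOK was 0.32 (95% interval -0.08 to 0.73, adjusted p = 0.23).

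SELENOT and SELENOF were not called in any comparison of the lines, although SELENOF was called lower in polysome RNA once the length trend was removed (-0.58). SELENOT had total RNA of 34.4, 32.4 and 33.7 CPM in shCtrl and 40.3, 40.4 and 37.1 in shPRRC2B, which did not overlap, and polysome RNA of 379.1, 324.7 and 324.0 against 339.1, 268.6 and 270.2, which did. Its ratios were 11.03, 10.01 and 9.63 in shCtrl against 8.41, 6.65 and 7.29 in shPRRC2B, without overlap, and the TE change was -0.46 (95% interval -0.83 to -0.09, adjusted p = 0.0622). It was called down without replicate 3 of shCtrl polysome RNA and without replicate 1 of shPRRC2B polysome RNA. SELENOF ranged from 79.7 to 95.4 CPM in shCtrl and from 73.4 to 81.2 in shPRRC2B total RNA, and its TE change was -0.08 (95% interval -0.44 to 0.28, adjusted p = 0.767). Its polysome RNA, 1101 to 1243 CPM in shCtrl and 920.7 to 1034 in shPRRC2B, did not overlap, with a log2 change of -0.26 (adjusted p = 0.0915).

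SELENOW, a small cytosolic redox protein, had total RNA of 35.8, 38.3 and 27.9 CPM in shCtrl and 23.1, 23.5 and 25.4 in shPRRC2B. The lines did not overlap, and the fall of 0.51 on the log2 scale (SE 0.16, adjusted p = 0.0235) was just past the size threshold. It was lost in 7 of 23 alternatives, among them limma (adjusted p up to 0.128 over all 23), the removal of the length trend, and leaving out replicate 1 or 2 of either total RNA group. Polysome RNA overlapped, at 328.5, 226.9 and 263.7 against 209.3, 231.7 and 293.8 CPM, and the TE change was 0.35 (95% interval -0.13 to 0.83, adjusted p = 0.27).

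TXNRD1, which keeps cytosolic thioredoxin reduced, had total RNA of 86.8, 94.2 and 89.9 CPM in shCtrl and 116.6, 122.6 and 112.9 in shPRRC2B, without overlap, and polysome RNA of 46.4, 52.0 and 56.6 against 56.1, 43.5 and 29.0, with overlap. The ratios were 0.534, 0.552 and 0.629 in shCtrl and 0.481, 0.354 and 0.257 in shPRRC2B, and did not overlap. Its TE change of -0.64 was the lowest of the 10 (SE 0.24, 95% interval -1.15 to -0.14) and had an adjusted p of 0.0548. It was called down in 6 of 24 alternatives: DESeq2, limma, every gene with at least 1 count tested, the cultures within each line as a block, and without replicate 1 of either polysome group. TXNRD2 had total RNA of 34.1 to 48.8 CPM in shCtrl and 37.6 to 42.6 in shPRRC2B, which overlapped, and polysome RNA of 30.4 to 37.4 against 41.9 to 47.0, which did not. Its log2 changes were -0.05 in total RNA, 0.39 in polysome RNA (adjusted p = 0.0353, under the size threshold) and 0.44 in TE (95% interval 0.02 to 0.86, adjusted p = 0.117).

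**Figure D4:**
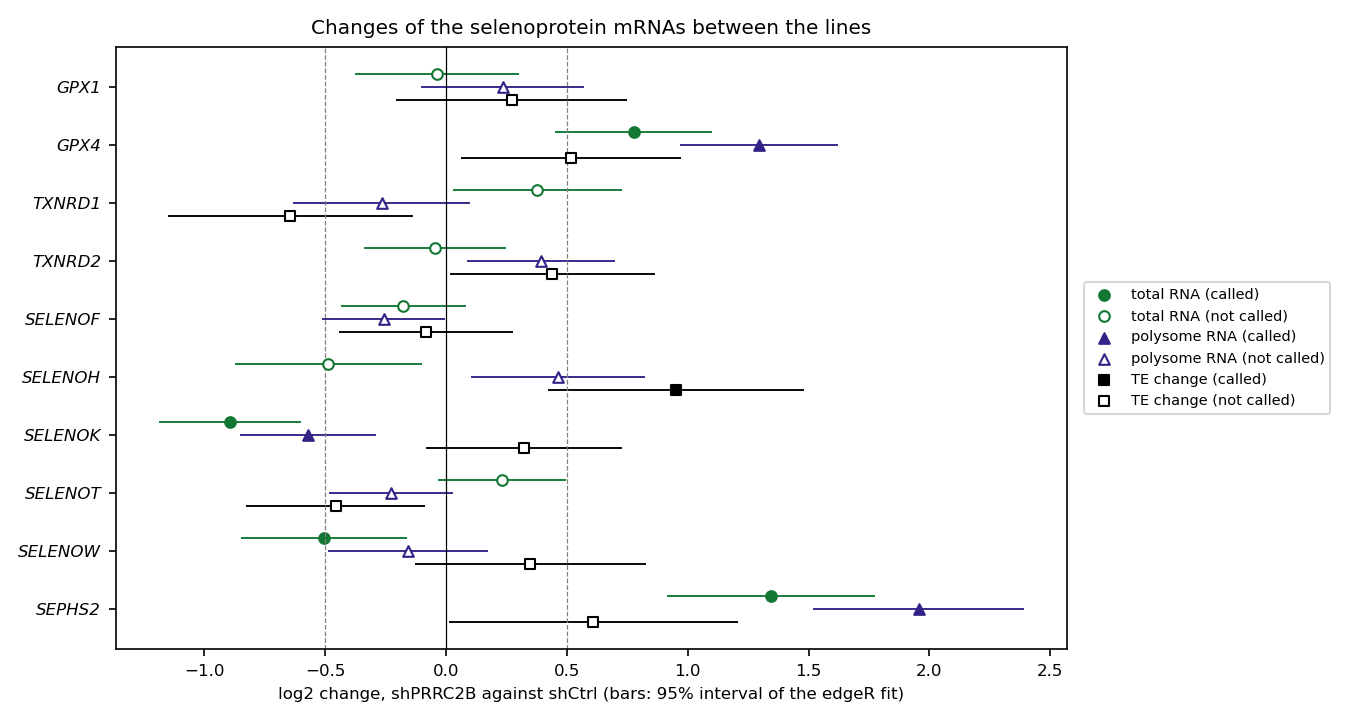
Log2 change between shPRRC2B and shCtrl (horizontal axis, bars are 95% intervals of the edgeR fit, 3 replicates per group) of the 10 mRNAs in total RNA (green circles), polysome RNA (blue triangles) and TE (black squares), filled where called and with dashed lines at the size threshold of 0.5. SEPHS2 and GPX4 are to the right and SELENOK to the left in both fractions, while SELENOH is the single filled square.

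The TE changes also followed transcript length. Over all 15762 genes with a length, the Pearson correlation of the TE change with log2 length was -0.31 (across genes, which are not independent replicates and share the 12 libraries), and over the 10 mRNAs it was -0.65, a description with no test. By rank the 2 were alike, with Spearman correlations of -0.41 over all genes and -0.44 over the 10. The median TE change fell from 0.42 in the shortest length group to -0.67 in the longest. After removal of the length trend 0 of the 10 were called in TE, while 9.42% of all genes rose and 12.5% fell. The median of the 10 was -0.12, against -0.04 for all genes, and the changes of GPX1, GPX4, SELENOK and SELENOW turned below 0. Libraries of 1 group also leaned to different sides on length. The Spearman correlation of a library's deviation from its group mean with length was -0.28 in replicate 3 and 0.24 in replicate 1 of shPRRC2B polysome RNA, and 0.34 in replicate 3 and -0.27 in replicate 2 of shCtrl total RNA, and the part of this in the changes of the 10 mRNAs was not tested. Replicate 1 of shCtrl polysome RNA was the highest of its group in 8 of the 10 mRNAs, all but TXNRD1 and TXNRD2, in which it was lowest. Without it 3 of the 10 were called up in TE (GPX4, SELENOH and SEPHS2) and 1 down (TXNRD1), against 13.3% and 19.6% of all genes. In polysome RNA 0 were then called down, against 24.5% of all genes.

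Selenoprotein genes outside the 10 were read from a list of 15, of which 9 were tested. DIO1, DIO2, DIO3, GPX2, GPX6 and SELENOV were not tested, with at most 18 counts in any library. Of the 9, 0 rose and 2 fell in TE, where 10.7% of all genes rose and 16.4% fell. SELENOI, an ethanolamine phosphotransferase of phospholipid synthesis, fell by 1.74 on the log2 scale (SE 0.28, adjusted p = 0.000343), and SELENON, a reticulum protein mutated in congenital muscle disease, fell by 1.28 (SE 0.24, adjusted p = 0.00105). Both have long transcripts, of 8066 and 4314 nt, and both calls held with the length trend removed. Mean total RNA in shCtrl and shPRRC2B was 71.4 and 95.6 CPM for SELENOI, and 90.4 and 163.8 for SELENON. Mean polysome RNA was 17.7 and 7.07 CPM for SELENOI, and 44.5 and 33.1 for SELENON. SELENOS, a protein of endoplasmic reticulum degradation, had a TE change of 0.11 (95% interval -0.27 to 0.49). The median TE change of the 9 was 0.11, and in total RNA 4 of them rose and 1 fell (14.9% and 14.1% of all genes).

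The 13 genes of selenocysteine synthesis and insertion were all tested, and 2 rose and 2 fell in TE (10.7% and 16.4% of all genes), with a median of 0.04. RPL30, a ribosomal protein that also binds the SECIS element, rose by 0.94 (SE 0.20, adjusted p = 0.00245), a call lost with the length trend removed (0.43). NCL, the nucleolar protein nucleolin, fell by 1.54 (SE 0.23, adjusted p = 0.000164). SECISBP2, the SECIS-binding factor itself, had 0.43 (adjusted p = 0.0643) and SEPHS1, the relative of SEPHS2 without selenocysteine, 0.45 (adjusted p = 0.109). In total RNA SEPHS1 rose by 0.71 (adjusted p = 0.00112), in the same direction as SEPHS2, and SECISBP2 fell by 0.53 (adjusted p = 0.00201).

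Among 23 tested thiol enzymes without selenocysteine (GPX7 was not tested), 3 rose and 4 fell in TE (10.7% and 16.4% of all genes), with a median of -0.10. Of these GLRX5, a mitochondrial glutaredoxin of iron-sulphur cluster assembly, rose by 0.89 (adjusted p = 0.0139), a call lost with the length trend removed, and TXNIP, an inhibitor of thioredoxin, fell by 0.78 (adjusted p = 0.0418), a call lost in 16 of 24 alternatives. Mean CPM of TXNIP in shCtrl and shPRRC2B was 43.8 and 12.1 in total RNA, and 50.5 and 8.10 in polysome RNA. The log2 polysome-to-total ratios of the 23 in shCtrl had a median of 1.84, and 17 were called higher in polysome RNA (32.5% of all genes). The 10 selenoprotein mRNAs had 3.44 and 8 of 10, and the 9 other selenoprotein genes tested 2.58 and 5 of 9. These lists were not matched for transcript length. In the NRF2 pathway, which controls TXNRD1 and other antioxidant genes and whose list shares GCLC, GCLM and SRXN1 with the thiol enzymes, 0 of 14 rose and 5 fell in TE (10.7% and 16.4% of all genes), NQO1 by 1.37 (adjusted p = 0.0112) and TALDO1 by 0.75 (adjusted p = 0.0263, lost in 4 of 24 alternatives), with a median of -0.42. In total RNA 5 of the 14 rose and 0 fell (14.9% and 14.1% of all genes).

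Of 10 NMD factors, 1 rose and 3 fell in TE (10.7% and 16.4% of all genes), with a median of -0.28. UPF3A rose by 1.08 in TE (adjusted p = 0.00135). Its mean total RNA was 29.0 CPM in shCtrl and 14.2 in shPRRC2B, and its mean polysome RNA 19.5 and 20.3. In total RNA 2 of the 10 factors rose and 3 fell (14.9% and 14.1% of all genes). The selenoprotein mRNAs that differed most in total RNA had their codons in unlike places, SEPHS2 in a gene with 1 exon, GPX4 342 nt before the last exon junction and SELENOK 5 nt before it. The part of NMD or of the place of the codon in these changes was not tested.

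Over the 12 libraries the genes whose log2 CPM followed that of GPX4 most closely, among 10050 genes whose mean was 10 CPM or more, were FUOM (Pearson r = 0.999), MRPL43 (0.999) and LSM10 (0.999). The libraries of a group lie close together, so this describes a likeness over 4 groups more than over 12 separate points.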

How the data were processed

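The files deposited by the authors hold unnormalized counts of read pairs, with 1 entry for each gene name in each library. Per the submitters' processing notes the tools were bcl2fastq 2.19.0, Trimmomatic 0.36, HISAT2 2.1.0 and Subread 2.0.1 with featureCounts on GRCh38, and the paper's methods give GENCODE 38 as the annotation. The counting options given there name neither a strand nor multiple assignment, and featureCounts by default ignores strand and leaves out pairs that match more than 1 gene, so genes that overlap can lose counts. Library totals were 9855734 to 20837542 counts, and every column of the table belonged to a library.

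Analysis ran in edgeR 4.0.16 under R 4.3.3 (filterByExpr with a minimum count of 10, TMM over 12 libraries, glmQLFit and glmQLFTest in 1 fit of the 4 groups with no block). Benjamini-Hochberg adjustment covered 18166 genes, and calls required an adjusted p below 0.05 with a log2 change over 0.5 in either direction. The TE change sets the ratio of polysome to total RNA in shPRRC2B over that in shCtrl, and ratios of single replicates divide libraries with the same number. The fit was tested on simulated data first. Transcript lengths, codons and sequences came from the canonical transcripts of GENCODE 44 on GRCh38, which gave a length for 15762 of the genes tested (86.8%). Alternatives used DESeq2 1.42.0, limma 3.58.1 on log2(CPM + 1), other scalings and filters, a replicate block, a lowess offset on length (span 0.3), no minimum log2 change, and each library left out.

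All 10 selenoprotein mRNAs were named, and from each other list the genes with the largest and the smallest log2 TE change among those called, plus SELENOS, SEPHS1 and SECISBP2. A gene that this rule also names is not reported here. The genes and lists were chosen with earlier results of these data known. Intervals are 95% intervals of the fit, and errors are SDs between replicates or SEs of the fit.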

Additional observations from a re-analysis of the deposited data

Results flagged for a closer look

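The polysome-to-total ratio differed between the lines by the interaction term of the edgeR fit for SELENOH, with a TE change of 0.95 on the log2 scale. The values of the 9 genes that the naming rule took from the other lists, other genes of which also passed the test, are given here. SELENOI (-1.74), SELENON (-1.28), NCL (-1.54), TXNIP (-0.78), NQO1 (-1.37) and TALDO1 (-0.75) had lower ratios in shPRRC2B. RPL30 (0.94), GLRX5 (0.89) and UPF3A (1.08) had higher ones. Among the genes named here the shortest transcripts were those of RPL30 (498 nt), GLRX5 (1103 nt) and SELENOH (1192 nt), which rose, and TALDO1 (1199 nt), which fell, and the longest those of SELENOI (8066 nt) and SELENON (4314 nt), which fell. The part of transcript length in these values was not tested beyond the removal of the length trend, under which the calls of SELENOH, RPL30, GLRX5 and TXNIP were lost.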

How the results depend on the processing

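Of 1160 values of single selenoprotein mRNAs under alternatives, 1097 kept their direction and their side of the thresholds. The 8 mRNAs called higher in polysome than in total RNA, in either line, and the 2 that rose in total RNA (GPX4 and SEPHS2) were counted at 8 and 2 under every alternative run. Of all genes 16.3% to 37.3% were called higher in shCtrl and 19.2% to 40.7% in shPRRC2B, and 7.01% to 18.5% rose in total RNA.

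In TE, 2 of the 10 were called up with TMM within each fraction (12.3% of all genes). The same number was called up with every gene with at least 1 count (5.02%) and with at least 10 counts in every library (16.3%). With the length trend removed 0 were called up, alone (9.42%) or with the replicate block (8.62%). Down in TE, 1 was called by DESeq2 (18.5% of all genes) and by limma (16.1%). With every gene with at least 1 count (8.86%) and with a replicate block for the culture within each line (14.7%) it was also 1. In total RNA 1 was called down by limma (13.1% of all genes) and with the length trend removed, alone (14.8%) or with the replicate block (14.3%). With total counts (16.4%), TMM within each fraction (15.5%) and every gene with at least 1 count (7.82%), 3 were called, SELENOH among them. The same 3 were called with at least 10 counts in every library (16.1%) and with no minimum log2 change (16%). In polysome RNA 4 were called up with no minimum log2 change (21% of all genes). With the length trend removed 2 were called down, alone (20.3%) or with the block (19.8%). Polysome against total RNA gave 2 down with total counts in both lines (58.8% of all genes in shCtrl and 56.2% in shPRRC2B). With the length trend removed it gave 2 down in shPRRC2B, alone (36.6%) or with the block (36.4%).

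Leaving out 1 library at a time gave 1 to 3 up and 0 to 2 down in TE (6.82% to 13.3% and 12.4% to 19.6% of all genes). It gave 1 to 3 down in total RNA (10.2% to 16.8%) and 0 to 2 down in polysome RNA (20.1% to 24.5%). The TE change of SELENOS then ranged from -0.035 to 0.18, and the total RNA change from -0.14 to 0.079 in GPX1 and from -0.16 to 0.10 in TXNRD2.

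With the length trend removed, values that turned were TE changes of -0.25 (GPX1), -0.0013 (GPX4), -0.059 (SELENOK), -0.17 (SELENOW) and -0.35 (SELENOS), and for GPX1 0.12 in total and -0.13 in polysome RNA. With the trend removed together with the replicate block they were -0.24 (GPX1), -0.0499 (SELENOK), -0.17 (SELENOW) and -0.36 (SELENOS), and for GPX1 0.12 and -0.12. The ratio of TXNRD2 in shPRRC2B turned to -0.77 with total counts and to -0.89 with the trend removed, with or without the block. The cause of these shifts was not tested.

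The main test did not pair libraries, because the study's methods name no pairing. Same-numbered libraries of a line deviated together only weakly, with correlations of 0.0014 to 0.0703 in 6 pairs. In 12 pairs of a line with different numbers they were -0.09 to 0.0608. The ratios of single replicates thus divide libraries that share only a number. With the replicate block alone 1 of the 10 was called up and 0 down in TE, and 1812 genes rose and 2807 fell in TE over all genes, against 1935 and 2981.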

Other observations

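Among the 9 tested selenoprotein genes outside the 10, the largest rises in total RNA were those of SELENOP, GPX3 and MSRB1. They are named here after their values were seen. SELENOP, the plasma selenium carrier, had 6.46 CPM in replicate 2 of shCtrl total RNA, the median of the 3, and 28.5, 29.5 and 29.1 CPM in shPRRC2B, a log2 change of 2.20 (adjusted p = 1.64e-09 by edgeR's quasi-likelihood test). GENCODE 44 places genes on the opposite strand over 75.6% of its exon bases, which was not checked in GENCODE 38, so the level is uncertain. GPX3, the extracellular glutathione peroxidase, had 14.6, 17.3 and 13.0 CPM against 56.8, 57.8 and 55.5 (1.91, adjusted p = 7.45e-07). MSRB1, a methionine sulfoxide reductase that is not secreted, had 17.2, 16.8 and 16.8 against 42.7, 45.0 and 42.1 (1.35, adjusted p = 1.95e-05). No replicates of the lines overlapped in these 3 genes. Polysome RNA changed by 2.02, 1.67 and 1.95 in the same order, and the TE changes were -0.18, -0.24 and 0.60, none of them called.

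Thioredoxin itself, TXN, the substrate of TXNRD1, had 206.1, 204.7 and 201.4 CPM in shCtrl and 95.8, 96.4 and 102.8 in shPRRC2B total RNA, a fall of 1.05 on the log2 scale (adjusted p = 1.3e-05). TXN is outside the naming rule and was taken with results of these data known. Of the 23 tested thiol enzymes on its list, 4 rose and 2 fell in total RNA (14.9% and 14.1% of all genes). The log2 polysome-to-total ratio of TXN in shCtrl was 3.88, against 3.82 for GPX4 and -0.81 for TXNRD1, which were not matched for transcript length.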
